A study of Drosophila melanogaster with 10 samples.

Results

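The 35 genes described here encode proteins and peptides that the male accessory gland of Drosophila melanogaster secretes into seminal fluid. They were chosen as a fixed list of symbols, with earlier results of these data known. The symbols were looked up in the fly gene annotation, and all 35 were found among the 17412 gene identifiers of the deposited count files. Each gene had at least 1 read count in the series, and 34 of them passed edgeR's usual filter on low counts, Acp24A4 being the exception. No filter was applied here, so that genes near 0 in 1 genotype stayed in every count.

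Read counts per gene came from 10 RNA-seq libraries of testes, 2 for each of 5 genotypes, with 100 testis pairs per library from males under 2 days old. In the flies labelled B9d1 KD, Tektin-C KD or Klp59D KD, an RNA interference transgene was driven by bam-Gal4, a germ-line driver active in late spermatogonia and early spermatocytes, together with UAS-dicer2, which strengthens the interference. These flies grew at 22°C for 3 days and then at 30°C for 8 days. The sa mutant (sa-/-) lacks a TBP-associated factor found in the testis alone and grew at 22°C for 12 days. The wild type (WT) grew at 22°C for 10 days and is given no allele or transgene in the labels. Per the labels, young spermatocytes were enriched in B9d1 KD testes, mature spermatocytes in the other 3 altered genotypes, and WT held all germ cell stages. Temperature, driver and genotype therefore cannot be told apart in a comparison of a knockdown with WT or with the sa mutant. Germ cell stages also go with genotype in every comparison with WT, and between B9d1 KD and the other altered genotypes. Days of growth differ too between the sa mutant and WT.

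The accessory glands are paired secretory organs that open, beside the seminal vesicles leading from the testes, into the ejaculatory duct. Their products travel with the sperm into the female, where some change her egg laying and receptivity and others act on sperm storage, on other seminal proteins or against proteases. Sex peptide (SP) is the best known of them: a network of further seminal proteins binds it to stored sperm, from which it is released over days. The genes are used as accessory gland markers because their transcripts are abundant in that gland, while the testis is known mainly for germ-line transcripts. No accessory gland was among the samples, so their levels in that gland were not measured here.

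The libraries held 17621525 to 30798942 counts. The 2 libraries of each genotype differed by little more than sampling noise (a median squared deviation 1.03 to 1.08 times the binomial expectation), so their counts were summed and each genotype was treated as 1 sample. The comparisons thus have no replication behind them and carry no p-values: each difference is one between these particular samples. The targeted transcripts check the labels: B9d1 stood at 9.44 counts per 1e6 after scaling (CPM) in B9d1 KD, against 109 CPM in WT, and sa stood at 3.47 CPM in the sa mutant, against 39.2 CPM in WT. Tektin-C and Klp59D went against theirs. Tektin-C stood at 12.1 CPM in the libraries labelled Klp59D KD (Klp59D-labelled), and at 203 CPM in those labelled Tektin-C KD (Tektin-C-labelled). Klp59D stood at 335 CPM in the Klp59D-labelled and 29.7 CPM in the Tektin-C-labelled libraries. Both groups are called by their labels throughout, whatever the transcripts show. Testis germ-line genes marked the tissue in all 5 samples, with betaTub85D, the testis beta-tubulin, at 155 CPM or more. Mitochondrial transcripts took 1.75% to 2.76% of counts in the 3 knockdowns and 7.47% to 7.57% in the sa mutant and WT.

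Seminal fluid transcripts were scarce in WT testes and far more abundant in all 4 altered genotypes. Together the 35 genes held 40709 counts in B9d1 KD, 34479 in the Tektin-C-labelled sample, 228746 in the Klp59D-labelled sample and 100240 in the sa mutant, against 3421 in WT. As a share of all counts, this was 0.0798% in B9d1 KD (exact 95% interval 0.0791% to 0.0806%), 0.0589% in the Tektin-C-labelled sample (0.0583% to 0.0596%), 0.438% in the Klp59D-labelled sample (0.436% to 0.440%) and 0.268% in the sa mutant (0.266% to 0.269%), against 0.00892% in WT (0.00862% to 0.00922%). Intervals here and below are Clopper-Pearson intervals and cover counting error only, since reads without molecular identifiers are not independent molecules. The summed level was 704 CPM in B9d1 KD, 723 CPM in the Tektin-C-labelled sample, 3964 CPM in the Klp59D-labelled sample and 2070.1 CPM in the sa mutant, against 118 CPM in WT. Relative to WT the sum was 5.97-fold higher in B9d1 KD, 6.13-fold in the Tektin-C-labelled sample, 33.6-fold in the Klp59D-labelled sample and 17.6-fold in the sa mutant. The WT sum rests mostly on Spn77Bb (34.8% of the list's WT counts), Acp95EF (22.8%) and Spn77Bc (15.9%). As described below, the Spn77B genes were highest in WT and the counts of Acp95EF are uncertain. In bulk testes, fewer cells of a type and less RNA per cell cannot be told apart.

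A gene was called higher or lower when its log2 fold (prior count 2) was at least 1 in size and the exact 95% counting interval of the fold left out 1. In B9d1 KD over WT, 28 of the 35 genes rose and 3 fell, where 22.8% of the 16513 genes with a count were called higher and 22.6% lower. In the Tektin-C-labelled sample over WT, 31 rose and 3 fell, against a background of 17.6% higher and 14.9% lower. In the Klp59D-labelled sample over WT, 32 rose and 2 fell, against 20.0% and 20.5% of all genes. In the sa mutant over WT, 31 rose and 2 fell, against 23.0% and 24.0%. The median log2 fold of the 35 genes was 4.36 in B9d1 KD, 4.53 in the Tektin-C-labelled sample, 6.99 in the Klp59D-labelled sample and 6.25 in the sa mutant, while the median of all genes lay between 0.06 and 0.13. With the 4 genes that had no WT count set to a floor of 3 counts there, the list medians were 4.30 in B9d1 KD, 4.49 in the Tektin-C-labelled sample, 6.80 in the Klp59D-labelled sample and 6.25 in the sa mutant.

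The same 28 genes rose in all 4 altered genotypes, which 6.96% of all genes did. In 30 of the 35, every one of the 8 altered libraries lay above both WT libraries, against 23.9% of all genes. The level was lowest in WT for 31 genes (31.2% of all genes) and highest in the Klp59D-labelled sample for 25 (10.5% of all genes). In all of those 25 the sa mutant came second. For BG642163 its lead over the Tektin-C-labelled sample was within counting error (fold interval 0.866 to 1.47). The sa mutant was highest for 7 (Acp33A, Acp53Ea, Acp54A1, Acp63F, SP, Mst57Db and BG642312; 26.3% of all genes), and WT for 3 (Acp24A4, Spn77Bb and Spn77Bc; 25.3% of all genes). In WT, 27 of the 35 stood under 1 CPM.

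**Figure D1:**
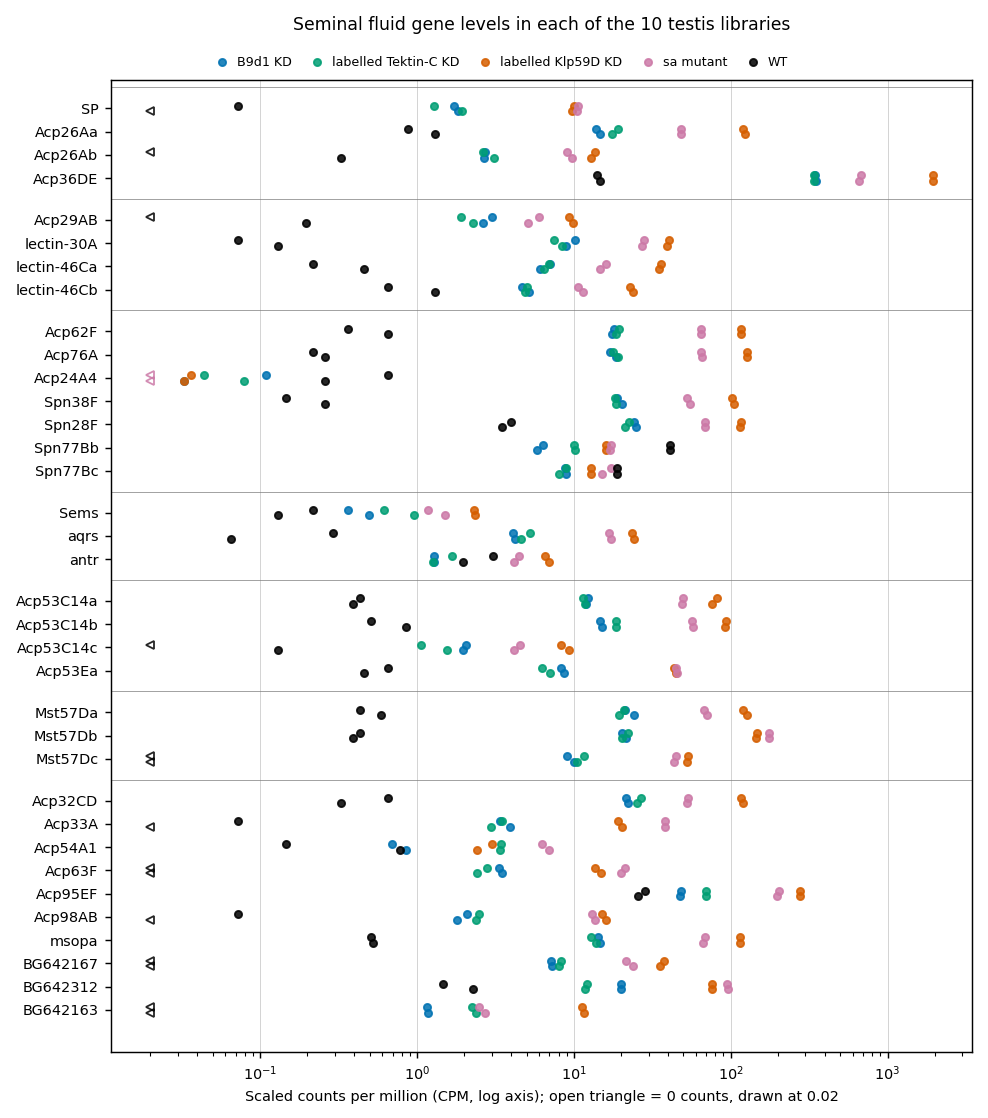
Level of each of the 35 genes in each of the 10 libraries, in CPM on a log axis, grouped by role from the peptides at the top to the small secreted products at the bottom. Each point is 1 library and an open triangle is a library with 0 counts; paired points of a genotype lie close together, orange points (Klp59D-labelled) lie farthest right for most genes and black points (WT) farthest left for 30 genes, the exceptions being Acp24A4, Spn77Bb, Spn77Bc, antr and Acp54A1.

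The peptides and the sperm storage glycoprotein rose together in every altered genotype (4 of 4 genes in each). Acp36DE (FBgn0011559; dm6 2L, 18356047 to 18359028, minus strand), a glycoprotein needed for sperm storage, was the most abundant of the list by counts in all 4. It stood at 346 and 348 CPM in the B9d1 KD libraries, 341 and 340.3 CPM in the Tektin-C-labelled libraries, 1947 and 1956 CPM in the Klp59D-labelled libraries, and 681 and 657 CPM in the sa mutant, against 14.0 and 14.7 CPM in WT. No altered library came near WT, and the B9d1 KD and Tektin-C-labelled libraries were within counting error of each other. Acp36DE was 24.2-fold higher in B9d1 KD (95% counting interval 21.9 to 26.7) than in WT. It was 23.7-fold higher in the Tektin-C-labelled sample (21.5 to 26.2), 136-fold in the Klp59D-labelled sample (123 to 149.8) and 46.5-fold in the sa mutant (42.2 to 51.3).

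Acp26Aa, which encodes ovulin, a hormone-like protein that stimulates ovulation in mated females, lies on 2L (5892883 to 5893896, minus strand), 20 bases from Acp26Ab, whose product is a short peptide. It stood at 13.9 and 14.6 CPM in B9d1 KD, 19.2 and 17.6 CPM in the Tektin-C-labelled libraries, 119 and 123 CPM in the Klp59D-labelled libraries, and 48.0 and 48.6 CPM in the sa mutant, against 0.875 and 1.31 CPM in WT. All altered libraries lay above WT, by 12.9-fold (9.10 to 19.1) in B9d1 KD and up to 110.1-fold (77.9 to 161) in the Klp59D-labelled sample.

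SP (3L, 13301635 to 13301922, plus strand), the sex peptide that lowers receptivity and raises egg laying after mating, had 103 counts in B9d1 KD, 78 in the Tektin-C-labelled sample, 572 in the Klp59D-labelled sample and 511 in the sa mutant, against 1 in WT. In libraries it stood at 1.72 and 1.84 CPM in B9d1 KD, 1.28 and 1.95 CPM in the Tektin-C-labelled libraries, 10.1 and 9.77 CPM in the Klp59D-labelled libraries, and 10.7 and 10.4 CPM in the sa mutant, against 0.0729 and 0 CPM in WT. The single WT count leaves the size of the difference loose: the fold in the sa mutant was 306 with an interval of 54.7 to 12116. The Klp59D-labelled sample and the sa mutant could not be ordered for SP, since the interval of the fold of the first over the second was 0.832 to 1.06.

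The 4 C-type lectins (Acp29AB, lectin-30A, lectin-46Ca and lectin-46Cb) rose in all 4 altered genotypes. Acp29AB helps retain sperm in storage, and lectin-46Ca and lectin-46Cb, which lie 699 bases apart on 2R, belong to the network that ties SP to sperm. lectin-46Ca stood at 7.05 and 6.07 CPM in B9d1 KD, 6.95 and 6.46 CPM in the Tektin-C-labelled libraries, 35.9 and 35 CPM in the Klp59D-labelled libraries, and 16.1 and 14.7 CPM in the sa mutant, against 0.219 and 0.458 CPM in WT. lectin-30A stood at 10.2 and 8.93 CPM in B9d1 KD, 7.48 and 8.41 CPM in the Tektin-C-labelled libraries, 40.4 and 39.2 CPM in the Klp59D-labelled libraries, and 27.9 and 27.2 CPM in the sa mutant, against 0.0729 and 0.131 CPM in WT. For both genes the Klp59D-labelled libraries were highest, the sa mutant next, and WT lowest, with no overlap between those groups.

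The serpins and other protease inhibitors were the class in which members went opposite ways. Of its 7 genes, 4 (Acp62F, Acp76A, Spn38F and Spn28F) rose in all altered genotypes, and the remaining 3 rose in none. The serpin Acp76A stood at 17.0 and 18.5 CPM in B9d1 KD, 17.7 and 19.2 CPM in the Tektin-C-labelled libraries, 127 and 128 CPM in the Klp59D-labelled libraries, and 64.9 and 65.9 CPM in the sa mutant, against 0.219 and 0.262 CPM in WT. The serpin Spn28F stood at 24.1 and 24.9 CPM in B9d1 KD, 22.6 and 21.3 CPM in the Tektin-C-labelled libraries, 116 and 114 CPM in the Klp59D-labelled libraries, and 68.3 and 68.5 CPM in the sa mutant, against 4.01 and 3.47 CPM in WT. Acp76A was 529-fold higher in the Klp59D-labelled sample than in WT (256 to 1315) and Spn28F 31.0-fold higher (25.6 to 37.8), the WT level of Spn28F being one of the few above 1 CPM.

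Spn77Bb and Spn77Bc, serpin genes on 3L with 20275 bases and 6 genes between them, were highest in WT. Spn77Bb stood at 6.39 and 5.84 CPM in B9d1 KD, 10.0 and 10.2 CPM in the Tektin-C-labelled libraries, 16.1 and 16 CPM in the Klp59D-labelled libraries, and 17.4 and 17.1 CPM in the sa mutant, against 41.3 and 40.8 CPM in WT. All 8 altered libraries lay below both WT libraries, and the gene fell in all 4 genotypes, by 2.74 on the log2 scale in B9d1 KD and by 1.25 in the sa mutant. Scaled by library size alone, it fell by 0.80 in the Klp59D-labelled sample and by 0.48 in the sa mutant, short of the call.

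Spn77Bc stood at 8.76 and 8.90 CPM in B9d1 KD, 8.95 and 8.09 CPM in the Tektin-C-labelled libraries, 12.9 and 12.9 CPM in the Klp59D-labelled libraries, and 17.2 and 15.2 CPM in the sa mutant, against 18.7 and 18.8 CPM in WT. It fell in B9d1 KD (log2 fold -1.08) and in the Tektin-C-labelled sample (-1.14) but was not called in the Klp59D-labelled sample (-0.54) or the sa mutant (-0.22), and by library size alone B9d1 KD was at -0.50, the Klp59D-labelled sample at 0.00 and the sa mutant at 0.56, so that its order against WT in the sa mutant depends on the scaling. Acp24A4, grouped here with the inhibitors, was the rarest gene of the list. Its libraries held 3 and 1 counts in B9d1 KD, 1 and 2 in the Tektin-C-labelled sample, 1 and 1 in the Klp59D-labelled sample, and 0 and 0 in the sa mutant, against 9 and 4 in WT. Its ratio to WT was 0.154 (counting interval 0.0367 to 0.499) in B9d1 KD, 0.140 (0.0257 to 0.511) in the Tektin-C-labelled sample and 0.0773 (0.00847 to 0.342) in the Klp59D-labelled one.

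Sems, aqrs and antr also serve the SP network, as a trypsin-like protease (seminase), an inactive protease homologue (aquarius) and a cysteine-rich secretory protein (antares). aqrs rose in all 4 altered genotypes: it stood at 4.13 and 4.20 CPM in B9d1 KD, 5.23 and 4.62 CPM in the Tektin-C-labelled libraries, 23.7 and 24.0 CPM in the Klp59D-labelled libraries, and 16.7 and 17.2 CPM in the sa mutant, against 0.292 and 0.0654 CPM in WT. antr did not follow it. It stood at 1.28 and 1.28 CPM in B9d1 KD, 1.68 and 1.28 CPM in the Tektin-C-labelled libraries, 6.52 and 6.91 CPM in the Klp59D-labelled libraries, and 4.47 and 4.18 CPM in the sa mutant, against 3.06 and 1.96 CPM in WT, so that WT lay within the range of the altered libraries. antr rose in the Klp59D-labelled sample (2.71-fold, 2.10 to 3.53); in B9d1 KD the ratio was 0.515 (0.368 to 0.723), just inside the 2-fold limit. Sems, at 5 WT counts, rose in 3 altered genotypes and had a ratio of 2.51 (0.943 to 8.39) in B9d1 KD.

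The Acp53 genes, a tandem group of small secreted proteins on 2R, lie within 16747834 to 16751495 on the minus strand with gaps of 224, 342 and 440 bases. All 4 rose in every altered genotype. Acp53C14b stood at 14.8 and 15.1 CPM in B9d1 KD, 18.6 and 18.7 CPM in the Tektin-C-labelled libraries, 93.7 and 92.1 CPM in the Klp59D-labelled libraries, and 56.5 and 57.8 CPM in the sa mutant, against 0.510 and 0.850 CPM in WT. Acp53C14a stood at 12.3 and 12.0 CPM in B9d1 KD, 11.5 and 11.8 CPM in the Tektin-C-labelled libraries, 81.8 and 75.6 CPM in the Klp59D-labelled libraries, and 49.7 and 49.2 CPM in the sa mutant, against 0.437 and 0.392 CPM in WT. Acp53Ea, their neighbour, stood at 8.29 and 8.67 CPM in B9d1 KD, 6.24 and 7.09 CPM in the Tektin-C-labelled libraries, 43.6 and 44.9 CPM in the Klp59D-labelled libraries, and 44.8 and 45.7 CPM in the sa mutant, against 0.656 and 0.458 CPM in WT. Its levels in the Klp59D-labelled sample and the sa mutant did not differ beyond counting error.

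The Mst57D genes, male-specific transcripts of the accessory gland, lie close together on 3R (25829321 to 25831899, minus strand), and BG642167 lies 22359 bases from Mst57Dc. All 3 Mst57D genes rose in every altered genotype. Mst57Da stood at 21.3 and 24.3 CPM in B9d1 KD, 21.0 and 19.5 CPM in the Tektin-C-labelled libraries, 120.2 and 126 CPM in the Klp59D-labelled libraries, and 67.9 and 70.9 CPM in the sa mutant, against 0.437 and 0.588 CPM in WT. Mst57Db stood at 20.3 and 21.5 CPM in B9d1 KD, 22.2 and 20.4 CPM in the Tektin-C-labelled libraries, 148 and 145 CPM in the Klp59D-labelled libraries, and 176 and 175 CPM in the sa mutant, against 0.437 and 0.392 CPM in WT, and so was highest in the sa mutant. Mst57Dc had no count in WT and 3067 in the Klp59D-labelled sample, where it was at least 514-fold higher against a floor of 3 counts over the WT sample, and at least 92.4-fold higher in B9d1 KD. How any reads shared between neighbouring genes were assigned is not given in the sources used here.

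Of the 10 other small secreted products, 8 rose in B9d1 KD and all 10 in each of the remaining altered genotypes. Acp32CD stood at 21.4 and 22.3 CPM in B9d1 KD, 26.8 and 25.3 CPM in the Tektin-C-labelled libraries, 117 and 120.3 CPM in the Klp59D-labelled libraries, and 53.6 and 52.5 CPM in the sa mutant, against 0.656 and 0.327 CPM in WT. Acp33A stood at 3.40 and 3.91 CPM in B9d1 KD, 3.50 and 2.99 CPM in the Tektin-C-labelled libraries, 19.3 and 20.3 CPM in the Klp59D-labelled libraries, and 37.9 and 37.9 CPM in the sa mutant, against 0.0729 and 0 CPM in WT. BG642312, known from accessory gland cDNA, stood at 20.2 and 20.1 CPM in B9d1 KD, 12.2 and 11.8 CPM in the Tektin-C-labelled libraries, 75.8 and 75.9 CPM in the Klp59D-labelled libraries, and 95 and 96.6 CPM in the sa mutant, against 1.46 and 2.29 CPM in WT. The sa mutant thus led for both genes without overlap. Acp63F, BG642167 and BG642163 had no count in WT; in B9d1 KD they were at least 33.1-fold, 70.2-fold and 11.4-fold higher than the WT floor of 3 counts. Acp63F stood at 3.32 and 3.51 CPM in B9d1 KD, 2.79 and 2.43 CPM in the Tektin-C-labelled libraries, 13.7 and 14.8 CPM in the Klp59D-labelled libraries, and 21.4 and 19.9 CPM in the sa mutant, where it was 199-fold higher than the WT floor.

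Acp54A1 had the largest difference of the 35 genes between B9d1 KD and the Tektin-C-labelled sample. It stood at 0.694 and 0.853 CPM in B9d1 KD, 3.45 and 3.39 CPM in the Tektin-C-labelled libraries, 3.00 and 2.43 CPM in the Klp59D-labelled libraries, and 6.32 and 6.95 CPM in the sa mutant, against 0.146 and 0.785 CPM in WT. B9d1 KD overlapped WT, with a ratio of 1.61 (0.869 to 3.18), and was 0.227 of the Tektin-C-labelled sample (0.160 to 0.318). Acp95EF, the most abundant gene of the list per kb of exon in every sample except the sa mutant, is uncertain: all 243 bases of its exons are shared with Spase22-23 on the opposite strand, and the strand setting of the counting is not given. It stood at 48.0 and 47.4 CPM in B9d1 KD, 69.2 and 70.2 CPM in the Tektin-C-labelled libraries, 277 and 278 CPM in the Klp59D-labelled libraries, and 202 and 199 CPM in the sa mutant, against 28.3 and 25.6 CPM in WT. Spase22-23, a signal peptidase subunit, stood at 46.8 CPM in B9d1 KD, 43.7 CPM in the Tektin-C-labelled sample, 65.4 CPM in the Klp59D-labelled sample and 67.4 CPM in the sa mutant, against 38.1 CPM in WT. A further 7 members lie inside the span of an opposite-strand gene without sharing exon bases, among them Acp36DE within Fas3.

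**Figure D2:**
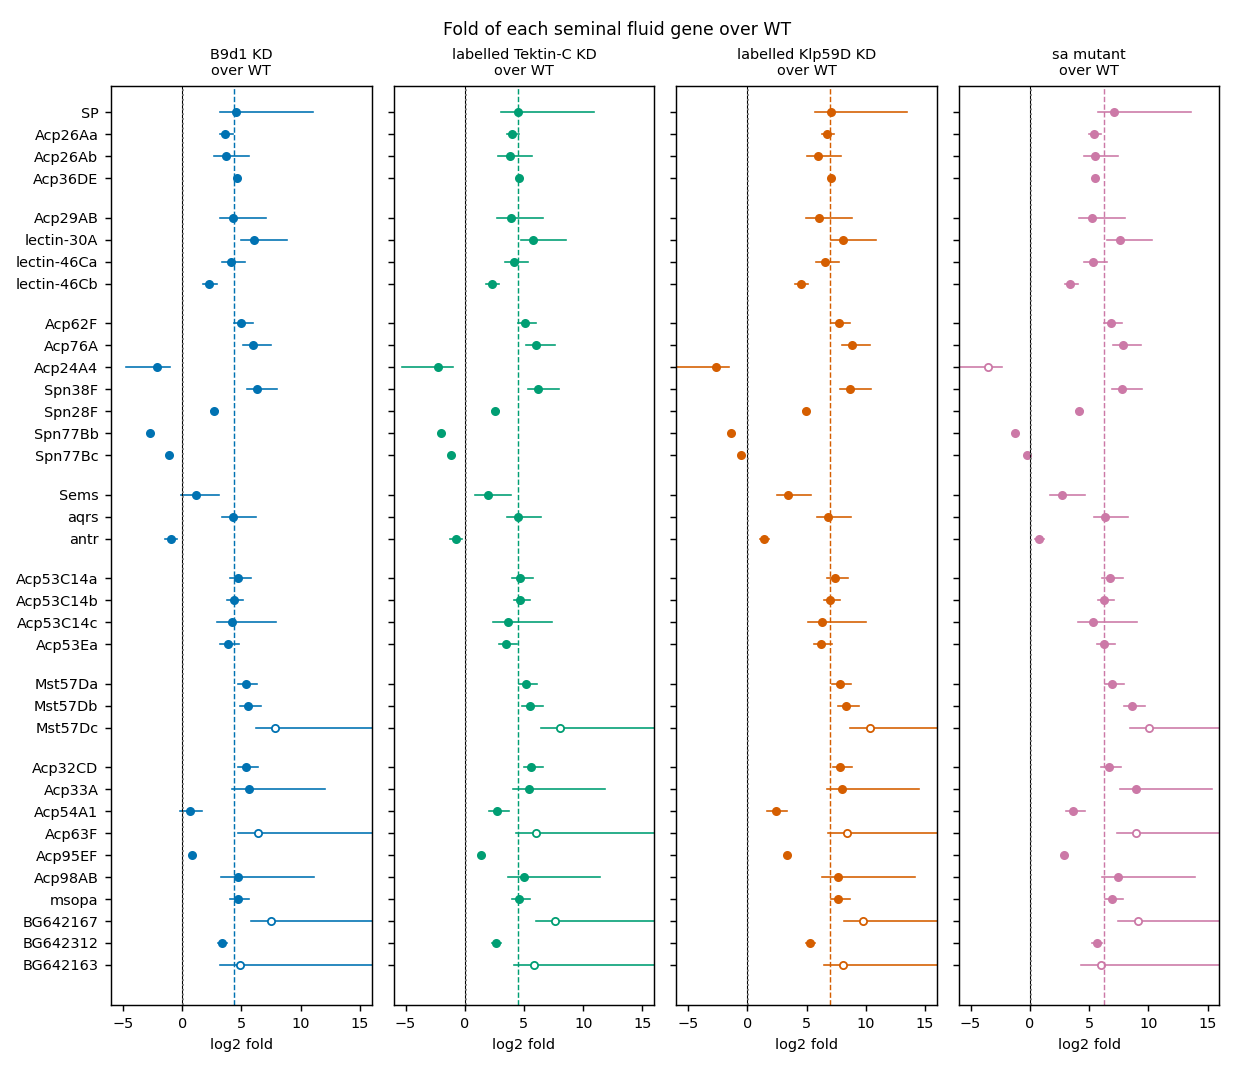
Log2 fold of each of the 35 genes over WT, 1 panel per altered genotype. Points are log2 folds (prior count 2), bars the exact 95% counting interval and open points genes with 0 counts in 1 of the samples. The solid black line marks no difference, the coloured dashed line the list's median and the grey dotted line the median of all genes. The list's medians lie at 4.36, 4.53, 6.99 and 6.25 from left to right, and Spn77Bb, Spn77Bc and Acp24A4 lie left of 0 in all panels.

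The 3 knockdowns shared temperature, driver and days of culture. The list's sum stood higher in the Klp59D-labelled sample than in B9d1 KD or the Tektin-C-labelled sample. Between the Klp59D-labelled sample and B9d1 KD, 33 of the 35 genes were higher in the first and none lower, where 6.46% of all genes were called higher and 5.54% lower. The median fold of the list was 5.36 (log2 2.42, all genes 0.00), and Acp36DE had 5.62-fold (5.54 to 5.70). Between the Klp59D-labelled and Tektin-C-labelled samples, 31 were higher and none lower, against 5.99% and 12.6% of all genes, with a median fold of 5.26. Spn77Bb (2.63-fold) rose in the first of these comparisons, while in neither of them did Spn77Bc (1.46-fold and 1.51-fold) or Acp24A4 pass the call. By library size alone, Spn77Bb (log2 fold 1.10) and Spn77Bc (1.03) passed it in the second.

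B9d1 KD and the Tektin-C-labelled sample carried the list at nearly the same level, although the labels place them at different spermatocyte stages. No member was higher and 1, Acp54A1, was lower in B9d1 KD, where 12.5% of all genes were called higher and 17.1% lower. The median log2 fold was -0.02. The counting interval of the fold held 1 for 18 of the 35 genes, lay above it for 8 and below it for 9. These numbers depend on how many counts each gene had, and the share over all genes is not given here. Scaled by library size alone, the median was 0.44, the median of all genes moved to 0.40, and 2 members were called higher in B9d1 KD, so the direction of this small difference depends on the scaling.

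Proportions within the list were compared next, because they do not depend on the scaling between samples. Acp36DE held 49.4% of the list's counts in B9d1 KD, 47.1% in the Tektin-C-labelled sample, 49.2% in the Klp59D-labelled sample and 32.3% in the sa mutant, against 12.2% in WT, where Spn77Bb led with 34.8%. For the Klp59D-labelled sample over B9d1 KD, 28 of the 35 genes had a fold within 1.5 times the list's median. For the Klp59D-labelled sample over the Tektin-C-labelled sample it was 29, and for B9d1 KD over the Tektin-C-labelled sample also 29. Of the 13831 genes that passed the low-count filter, 67.8%, 57.3% and 43.3% lay within the same limit of their own median in these 3 comparisons. The members' share was thus not far above that of all genes in the first of them. In the same 3 comparisons, the counting interval of the fold held the list's median for 15, 16 and 17 of the 35 genes. This too depends on each gene's counts, and no share over all genes is given. Over the sa mutant, 23 genes lay within 1.5 times the list's median for the Klp59D-labelled sample, 21 for B9d1 KD and 19 for the Tektin-C-labelled sample. Around their own median, 39.1%, 38.9% and 32.0% of the filtered genes did so.

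The sa mutant stood between the knockdowns in total but differed from them in proportions. Of the 35 genes, 7 were higher and 1 lower in the Klp59D-labelled sample than in the sa mutant, against 20.7% and 15.1% of all genes. In B9d1 KD none was higher and 31 were lower (20.4% and 15.2% of all genes), and in the Tektin-C-labelled sample none was higher and 28 lower (23.3% and 21.0%). Mst57Db gave 6.02, 6.24 and 7.50 counts per 100 Acp36DE counts in the B9d1 KD, Tektin-C-labelled and Klp59D-labelled samples, against 26.2 in the sa mutant. Acp33A gave 1.06, 0.948 and 1.02, against 5.67 in the sa mutant, and SP gave 0.513, 0.480 and 0.508, against 1.58. For these 3 genes the knockdowns were close to each other and all below the sa mutant. All 3 are among the 7 members highest in the sa mutant. Acp36DE held a smaller share of the list there (32.3%) than in the knockdowns (47.1% to 49.4%), which raises ratios to it. Most members had a higher ratio in the sa mutant than in each knockdown. As shares of the list's counts, the knockdowns gave 2.94% to 3.69% for Mst57Db, against 8.46% in the sa mutant. Acp33A gave 0.447% to 0.521%, against 1.83%, and SP 0.226% to 0.253%, against 0.51%.

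Several genes that led in the sa mutant are short. The list was split at 500 exon bases because of this, a limit chosen after the values had been seen, so the split describes the same observation again. It gave 12 shorter and 23 longer members. Between the Klp59D-labelled sample and the sa mutant, the median log2 fold was 0.09 for the shorter and 0.76 for the longer members. In 392 shorter and 11299 longer other coding genes it was 0.30 and -0.06. B9d1 KD over the sa mutant gave -2.47 for shorter and -1.49 for longer members, and -0.06 and 0.03 for the other coding genes. The Tektin-C-labelled sample over the sa mutant gave -2.21 and -1.53 for members, and 0.10 and -0.23 for the others. The part of exon length in these values was not tested.

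**Figure D3:**
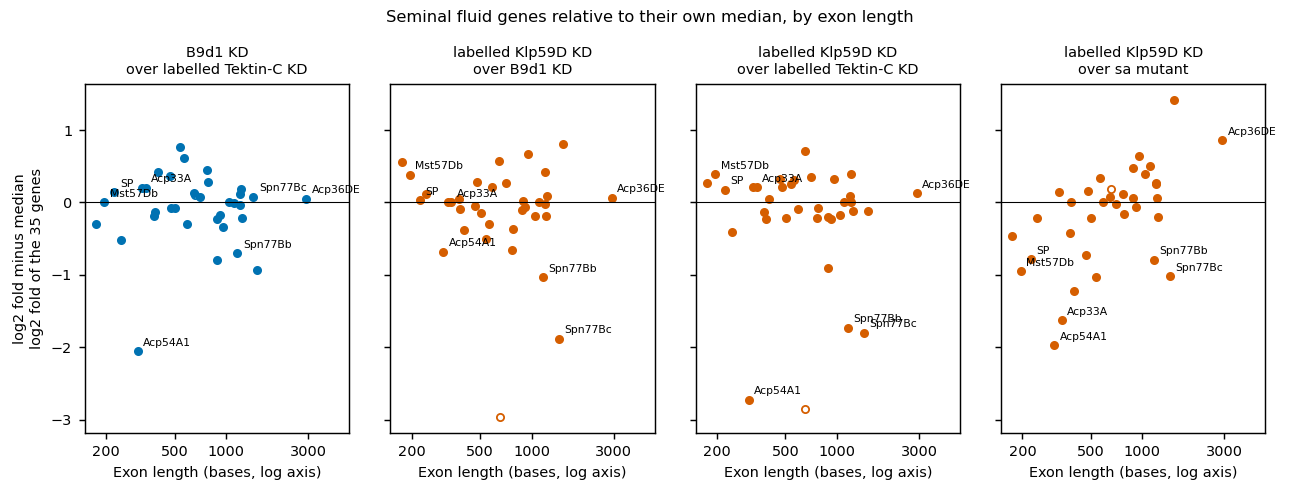
Log2 fold of each of the 35 genes minus the list's own median log2 fold, against exon length in bases on a log axis, for 3 comparisons among knockdowns and 1 with the sa mutant; the open point is Acp24A4, the rarest gene, whose place over the sa mutant, where it had 0 counts, depends on the prior count. Between knockdowns most points lie near 0. Among the exceptions, Acp54A1 lies far below 0 in both comparisons over the Tektin-C-labelled sample. Over the sa mutant Acp36DE lies above 0 and the named short genes SP, Mst57Db, Acp33A and Acp54A1 below it. Not all short genes do so, since Mst57Da lies above 0 there.

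Per kb of exon, members ranked high in the Klp59D-labelled sample and in the sa mutant. Among 16257 genes with a count and a length, ranked by CPM per kb, 9 of the 35 were in the top 1000 in the Klp59D-labelled sample and 9 in the sa mutant, 1 each in B9d1 KD and the Tektin-C-labelled sample, and none in WT. Mst57Db ranked 95 in the Klp59D-labelled sample and 77 in the sa mutant, against 9948 in WT. Acp36DE ranked 110 in the Klp59D-labelled sample, against 8196 in WT.

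Further accessory gland products were measured as well. The 28 genes with a numbered Sfp symbol (seminal fluid protein) summed to 38.9 CPM in B9d1 KD, 47.3 CPM in the Tektin-C-labelled sample, 194 CPM in the Klp59D-labelled sample and 144 CPM in the sa mutant, against 10.5 CPM in WT, where 11 of them had no count. Of the 28, 19 rose and 4 fell in B9d1 KD (median log2 fold 3.20), 21 rose and 1 fell in the Tektin-C-labelled sample (3.05), 22 rose and 1 fell in the Klp59D-labelled sample (5.28), and 21 rose and 3 fell in the sa mutant (5.13). In the SP network outside the list, the male products CG9997, CG17575, Semp1 and intr rose in all 4 altered genotypes. CG9997, a protease homologue, stood at 4.41 CPM in B9d1 KD, 4.32 CPM in the Tektin-C-labelled sample, 21.8 CPM in the Klp59D-labelled sample and 3.82 CPM in the sa mutant, against 0.0689 CPM in WT. Of the members of that network known to act in females, frma and hdly fell in all 4, Esp was not called in any, and the sex peptide receptor gene SPR fell in the Klp59D-labelled sample alone. The transcription factor gene prd, needed for accessory gland development, stood at 10.4 CPM in B9d1 KD, 12.0 CPM in the Tektin-C-labelled sample, 12.9 CPM in the Klp59D-labelled sample and 5.58 CPM in the sa mutant, against 4.79 CPM in WT, and rose in the 3 knockdowns. The homeobox gene dve rose in the Klp59D-labelled sample and the sa mutant, and Abd-B was not called in any.

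Markers of other tissues were summed in the same way, and their part in the levels of the list was not tested. The 16 muscle sheath genes summed to 1089 CPM in B9d1 KD, 2107 CPM in the Tektin-C-labelled sample, 1523 CPM in the Klp59D-labelled sample and 1181 CPM in the sa mutant, against 4616 CPM in WT. None rose, and 14 fell in B9d1 KD, 14 in the Tektin-C-labelled sample, 15 in the Klp59D-labelled sample and 14 in the sa mutant. The 7 ejaculatory duct and bulb genes found summed to 111 CPM in B9d1 KD, 109.9 CPM in the Tektin-C-labelled sample, 139 CPM in the Klp59D-labelled sample and 336 CPM in the sa mutant, against 385 CPM in WT. Of these, 5 fell in B9d1 KD, 2 in the Tektin-C-labelled sample and 1 each in the Klp59D-labelled sample and the sa mutant, and 1, Anp, rose in the Klp59D-labelled sample. The 5 fat body genes summed to 953 CPM in B9d1 KD, 824 CPM in the Tektin-C-labelled sample, 640.1 CPM in the Klp59D-labelled sample and 571 CPM in the sa mutant, against 749 CPM in WT, and 1 of them, Lsp2, rose, in B9d1 KD. The sums of 7 hemocyte genes (132 to 275 CPM), 7 hub and cyst genes (111 to 188 CPM) and 4 neuronal genes (22.1 to 64.8 CPM) are plotted by genotype. Of the hemocyte genes, 1 rose and 1 fell in B9d1 KD, 1 rose in the Tektin-C-labelled sample, 2 fell in the Klp59D-labelled sample and 1 rose in the sa mutant. Of the hub and cyst genes, 1 fell in B9d1 KD, 2 rose and 1 fell in the Tektin-C-labelled sample, 1 fell in the Klp59D-labelled sample and 3 fell in the sa mutant. Of the neuronal genes none rose, and 1 fell in B9d1 KD, 1 in the Tektin-C-labelled sample, 2 in the Klp59D-labelled sample and none in the sa mutant. Over WT, 17.6% to 23.0% of all genes were called higher and 14.9% to 24.0% lower. A single call in one of these small lists is therefore near the share of all genes. The hemocyte gene He had no count in the Klp59D-labelled sample. Of 6 male germ-line genes found, 3 rose and 3 fell in each altered genotype except the Tektin-C-labelled sample, where 1 rose and 1 fell.

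**Figure D4:**
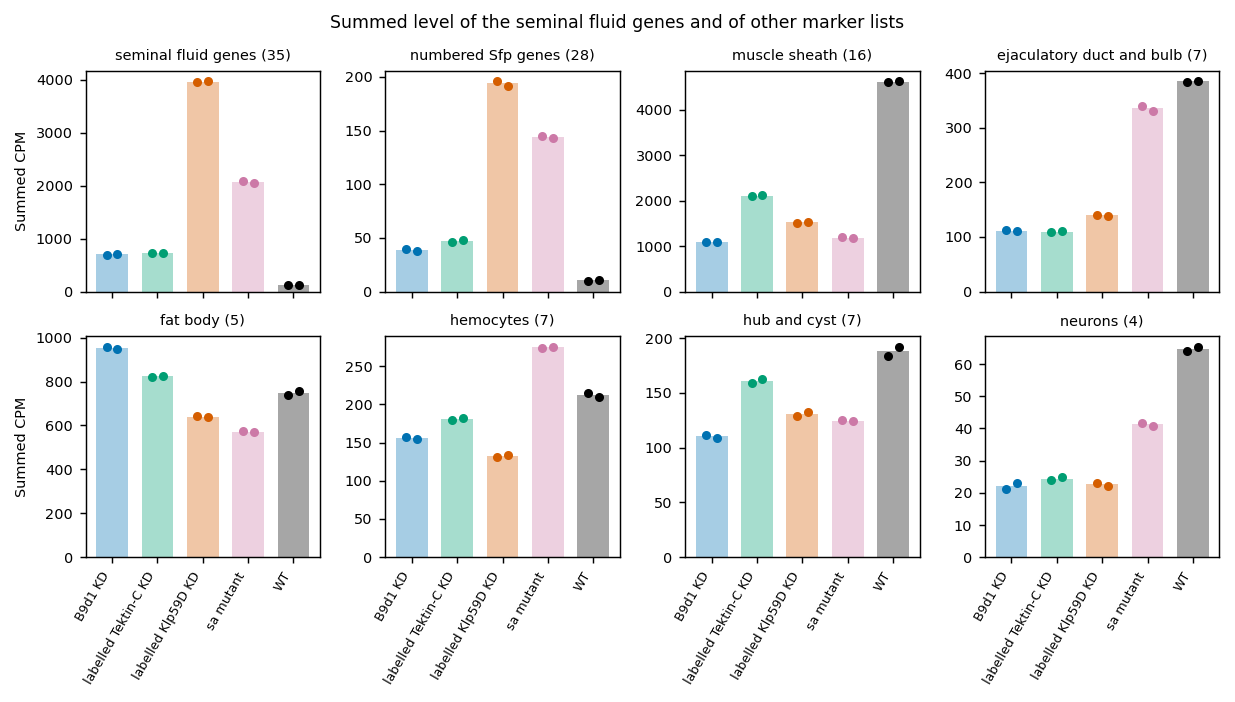
Summed CPM of the 35 genes and of 7 marker lists (number of genes in brackets) in each genotype; points are the 2 libraries and bars their mean, with a separate linear axis from 0 in each panel. The seminal fluid and numbered Sfp panels are lowest in WT and highest in the Klp59D-labelled sample, whereas the muscle sheath, duct and bulb, hub and cyst and neuron panels are highest in WT. Single genes carry much of the WT sum for the duct and bulb (Est-6, 286 CPM), hub and cyst (Fas3, 86.5 CPM) and neurons (nSyb, 41.4 CPM). Of the duct and bulb genes, Dup99B, Anp, Gld and EbpII were highest in the Klp59D-labelled sample, Est-6 and Ebp in WT, and EbpIII in the sa mutant.

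The members share features that were not used to list them. Their exons span a median of 653 bases (175 to 2923), against 1725 bases for all coding genes. They lie on the autosomes: 11 on 2L, 8 on 2R, 9 on 3L and 7 on 3R, with none on the X, which holds 15.6% of the 13685 coding genes. The Acp53 and Mst57D genes and the lectin-46C pair are among the 28 of 35 that rose in every altered genotype, so this does not set neighbours apart. Adjacent genes could differ in order: Mst57Da stood at 123 CPM in the Klp59D-labelled sample and 69.5 CPM in the sa mutant, while Mst57Db stood at 146 CPM in the Klp59D-labelled sample and 175 CPM in the sa mutant. The Spn77B pair were both highest in WT, except that Spn77Bc was higher in the sa mutant when scaled by library size alone.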

How the data were processed

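Per the labels, total RNA of testes was depleted of ribosomal RNA and made into stranded libraries. The submitters' processing notes name STAR 2.5.1b, Trim Galore 0.4.1 and dm6; how reads were counted (program, strand, annotation, multiply mapped reads) is not given in the sources used here. The authors deposited whole-number read counts per gene, unnormalized. Symbols and positions came from Ensembl release 115, which matched 17138 of 17412 identifiers. The members and lists were chosen with earlier results of these data known.

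The 2 libraries of a genotype, which the labels separate only by a replicate number, differed by little more than sampling noise (5.26% to 5.47% of genes with 50 to 5000 counts outside the 95% binomial range) and were summed. Libraries of the same number deviated together in every pair of groups (correlations of 0.130 to 0.209 over 9032 genes), so the numbers pair them, as the data and not the labels show. The sums were scaled by TMM factors computed on the 13831 genes passing edgeR's filterByExpr (edgeR 4.0.16, R 4.3.3): 1.13 in B9d1 KD, 0.815 in the Tektin-C-labelled and 1.11 in the Klp59D-labelled sample, 1.29 in the sa mutant and 0.756 in WT. CPM is counts per 1e6 scaled counts; log2 folds use a prior count of 2. A floor of 3 counts is 0.0519 CPM in B9d1 KD, 0.0629 CPM in the Tektin-C-labelled sample, 0.0520 CPM in the Klp59D-labelled sample and 0.0620 CPM in the sa mutant, against 0.103 CPM in WT. The steps were checked on simulated counts.

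Values in every library are given for the 2 most counted members of each role class, SP, members not highest in the Klp59D-labelled sample and members not called higher anywhere; other members are named in part after their values were seen. The rule also asked for the 2 most counted genes of each other list, which are given here only as list sums and counts; the genes of those lists that are named, apart from the targeted genes, were chosen after their values were seen. Protein lengths and promoter motifs were planned and not analysed here. Alternatives were RLE factors, library size alone, low-count filters, a 4-fold limit, no counting interval, a prior count of 0.5, leaving out structural and mitochondrial RNA, each library or the 4 libraries whose targets go against their labels, and edgeR and DESeq2 1.42.0 fits with libraries as replicates.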

Additional observations from a re-analysis of the deposited data

How the results depend on the processing

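Of the alternatives run on the counts of members called higher and on the list medians, 258 kept the direction and stayed within 1.5 times the count or within the counting interval of the median. The 3 exceptions came with library size alone, and all concern the Tektin-C-labelled sample: the median log2 fold of B9d1 KD over it was 0.44 instead of -0.02, the members higher in B9d1 KD were 2 (Acp53C14c and BG642312) instead of 0, and the median of the Klp59D-labelled sample over it was 2.83 instead of 2.39. The scaling itself accounts for the shift, since the median of all genes moved by about the same amount, to 0.40 and 0.43. Over WT, library size alone moved the median of all genes to 0.55, 0.23, 0.54 and 0.75 in B9d1 KD, the Tektin-C-labelled and Klp59D-labelled samples, and the sa mutant. Leaving out 1 library gave 28 to 29, 31, 32 and 31 to 32 members higher than in WT, with medians of 4.33 to 4.69, 4.49 to 4.64, 6.91 to 7.38 and 6.02 to 6.51; for the Klp59D-labelled sample over B9d1 KD it gave 33 and 2.35 to 2.47, over the Tektin-C-labelled sample 31 and 2.34 to 2.39, and for B9d1 KD over the Tektin-C-labelled sample 0 and -0.08 to 0.01. A 4-fold limit left 28, 29, 31 and 31 members higher than in WT.

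With a replicate block that pairs libraries by number, edgeR called 28, 31, 32 and 31 members higher than in WT, 33 and 31 higher in the Klp59D-labelled sample than in B9d1 KD and the Tektin-C-labelled sample, and 0 higher in B9d1 KD than in the Tektin-C-labelled sample; without the block it called 29 in B9d1 KD over WT and the same numbers otherwise, and DESeq2 called 28. These fits measure only the spread between repeat libraries. Without the 4 libraries whose targets go against their labels, 28 members were higher in B9d1 KD and 31 in the sa mutant than in WT. Of single members under another scaling, 478 values kept their call, 9 gained one and 3 lost one. Depth limits the members with few WT counts: with 1 count the upper bound of a fold is over 1000. With 0 the interval has no upper end, and the fold is given against a floor of 3 counts.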
